A study of Mus musculus with 4 samples.

Results

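Paneth cells are granule-filled secretory cells at the base of the small-intestinal crypt, next to the Lgr5 stem cells. They secrete lysozyme, alpha-defensins and lectins that act on bacteria, and the protease matrilysin (Mmp7), which in the mouse cuts pro-defensins into their active form. They also present Wnt, Notch and EGF family ligands to the neighbouring stem cells. They share the Atoh1-dependent secretory lineage with goblet cells, which make the Muc2 mucus.

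The cells described here were chosen by transcripts. A barcode was kept with at least 1000 gene UMIs (unique molecular identifiers, each standing for 1 captured transcript), at least 500 genes, mitochondrial UMIs under 20% and 60% or more of its hashtag counts on 1 hashtag. It was chosen when Lyz1, Defa17 and Defa24 together made up at least 0.5% of its gene UMIs and it had at least 1 Mmp7 UMI. This gave 118 cells of 2011 that passed the filter, from 5452 barcodes in all. These 4 transcripts chose the cells, so their levels, and every comparison of the chosen cells with other cells, are a description with no test.

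The cells came from the distal small-intestinal epithelium of 8 mice of the genotype Lgr5-EGFP-IRES-CreERT2;Rosa26-mTmG. All 8 mice had received 4-OH-tamoxifen, which in this design switches on GFP in Lgr5-expressing cells and their descendants. Mice 1 to 4 were traced for 48 h and mice 5 to 8 for 72 h. Sorting separated clones (GFP-high) from control cells (GFP-negative and non-recombined) of the same animal, so the control cells carry the same alleles and saw the same drug. The Lgr5 promoter drives both the recombinase and an EGFP of its own, so a green cell may be green through either source. A hashtag antibody marked the mouse of origin. The cells were run as 2 pools: pool 1 held the control cells of mice 1, 2, 5 and 6 and the clones of mice 3, 4, 7 and 8, and pool 2 held the reverse.

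The mouse was the replicate. Of the cells that passed, 1134 were in pool 1 and 877 in pool 2, and 1 barcode sequence occurred in both pools. The chosen cells had a median of 31458 gene UMIs (1020 to 80718) and 4870 genes, against a median of 18959 UMIs in the 1893 other cells. Their median mitochondrial share was 4.13%, against 7.10%. All 8 mice contributed, from 5 cells (mouse 2) to 46 cells (mouse 8, 39.0% of all). The 48 h clones stand apart in depth and number: they held 76 cells in all, and the 46 of mouse 3 had a median of only 1638 UMIs.

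The promoter sequences of 2 of the genes in the rule and of 1 further alpha-defensin are shown, since Lyz1 and Mmp7 entered the choice of the cells and Defa36 is among the defensins compared between gates and times. Each line gives the 250 bases before the start site, 5′ to 3′ on the gene's strand, from RefSeq (GRCm38.p6), with motif letters in capitals. The Lyz1 window lies at chr10:117292869-117293118 on the minus strand, that of Mmp7 at chr9:7691840-7692089 on the plus strand and that of Defa36 at chr8:21427178-21427427 on the plus strand. In GENCODE M21 Defa36 starts at 21427411, so the last bases of its window lie within the GENCODE gene.
Lyz1: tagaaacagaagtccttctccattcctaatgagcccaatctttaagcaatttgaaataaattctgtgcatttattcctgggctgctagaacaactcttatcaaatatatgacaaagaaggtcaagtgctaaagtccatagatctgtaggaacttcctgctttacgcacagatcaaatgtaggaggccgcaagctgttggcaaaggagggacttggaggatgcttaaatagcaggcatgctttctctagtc
Mmp7: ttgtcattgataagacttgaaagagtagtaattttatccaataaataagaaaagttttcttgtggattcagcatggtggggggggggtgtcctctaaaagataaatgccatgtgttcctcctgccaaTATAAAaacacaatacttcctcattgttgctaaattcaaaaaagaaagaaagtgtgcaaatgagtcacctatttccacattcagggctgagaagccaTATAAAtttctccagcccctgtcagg
Defa36: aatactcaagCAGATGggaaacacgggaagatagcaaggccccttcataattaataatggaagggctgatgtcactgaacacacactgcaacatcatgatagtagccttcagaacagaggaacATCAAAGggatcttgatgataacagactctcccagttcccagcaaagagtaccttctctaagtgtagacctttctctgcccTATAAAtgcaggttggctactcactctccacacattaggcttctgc
The letters searched, on both strands, were CTTTGAA with its variants CTTTGAT then CTTTGTA besides CTTTGTT (the core bound by TCF/LEF factors of the Wnt pathway), CAGCTG and CAGATG (E-boxes) and TATAAA. Defa36 held 1 match of each kind, with the TCF/LEF letters on the other strand at 127 to 121 bases before the start. Mmp7 held TATAAA at 123 to 118 and at 26 to 21 bases before the start, and Lyz1 held none of these letters. Over 32817 promoter windows of the same length, 14.8% held a TCF/LEF match, 25.5% an E-box match and 12.4% TATAAA. A match is a description of the letters only.

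Defa24 carried most of the rule. In the summed chosen cells it reached 51372 CPM (UMIs of the gene per 1000000 gene UMIs of the summed cells), against 290 in all other cells. Over the 8 mice its level in the chosen cells ran from 17552 to 129120 CPM with a median of 35696, and in the other cells from 182 to 382. Lyz1, the lysozyme of Paneth granules, stood at 8204 against 43.5 CPM, with mice between 725 and 18752 CPM. Defa17, a second alpha-defensin, stood at 1564 against 9.91 CPM. Mmp7 stood at 3588 against 394 CPM and was the least selective of the 4. The chosen and the other cells did not overlap between mice in any of these 4 transcripts. Lyz1 is at chromosome 10, 117287797 to 117292868 on the minus strand, Mmp7 at chromosome 9, 7692090 to 7699585 on the plus strand, Defa24 at chromosome 8, 21734494 to 21735471, and Defa17 at chromosome 8, 21655780 to 21656735, both on the plus strand (GENCODE M21, GRCm38).

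**Figure D1:**
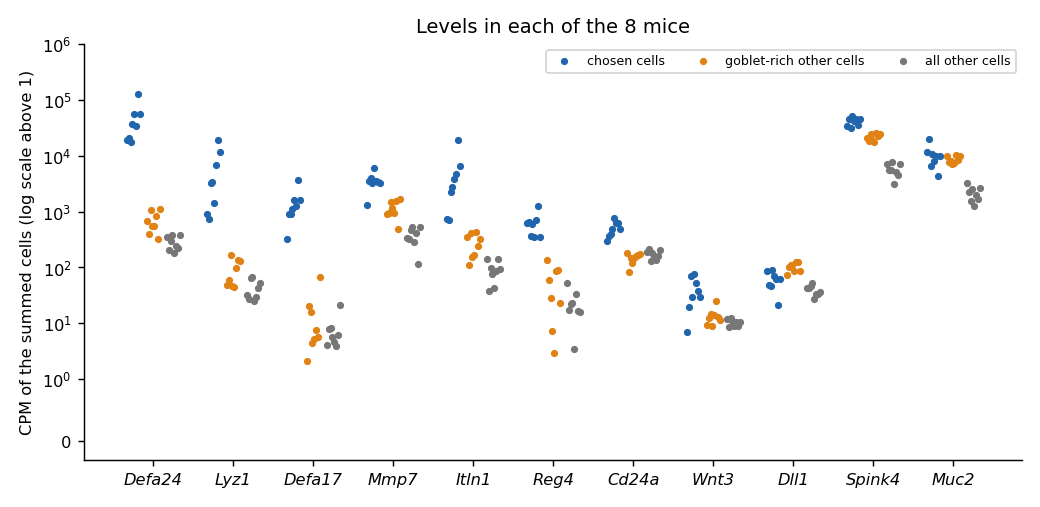
Level of 11 transcripts in the summed cells of each of the 8 mice (points; CPM, log scale above 1) in chosen cells, goblet-rich other cells and all other cells. Defa24 lies between 17552 and 129120 CPM in chosen cells and between 182 and 382 in all other cells, whereas Muc2 in chosen cells (4261 to 19662) overlaps the goblet-rich cells.

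The label Paneth held only in part. Of the 118 cells, 118 had a Defa24 UMI, 97 a Lyz1 UMI, 80 a Defa17 UMI and 106 at least 10 Mmp7 UMIs. Most also carried goblet transcripts: 90 of 118 also had Muc2, Zg16 and Fcgbp at 0.5% or more of their UMIs, the limit used here for goblet-rich cells. Muc2, the gel-forming mucin, stood at 9450 CPM in the chosen cells and at 8725 CPM in the 388 goblet-rich other cells. Tff3, a trefoil peptide of mucus, stood at 26406 and 28888 CPM. Zg16, a lectin of mucus, stood at 12546 and 16310 CPM and ran from 164 to 33162 CPM between mice. Spink4, a protease inhibitor of goblet cells, was higher in the chosen cells in 8 of 8 mice (43490 against 22051 CPM). For 48 of the 118, the 3 goblet transcripts took a larger share of the cell than the 3 transcripts of the rule. They are therefore called chosen cells here and not Paneth cells.

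**Figure D2:**
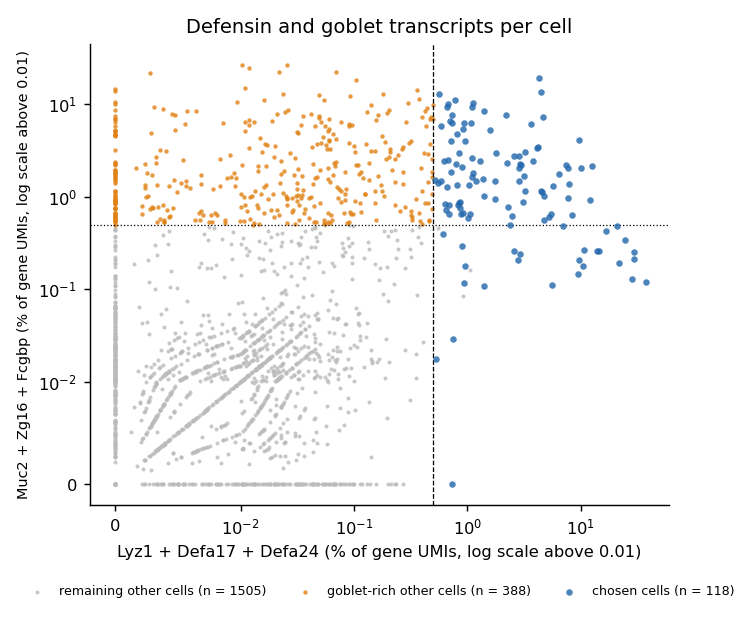
Each point is 1 of 2011 cells, by the share of Lyz1, Defa17 and Defa24 (x, % of gene UMIs) and of Muc2, Zg16 and Fcgbp (y, %); both axes are logarithmic above 0.01 and the lines mark 0.5%. Of the 118 chosen cells, 90 lie above the goblet line and 28 below it.

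Around the limit there was no gap. The 6 chosen cells just inside (0.514 to 0.589%) had a median Muc2 of 9640 CPM and Defa24 of 5294 CPM. The 21 cells with Mmp7 just outside (0.410 to 0.499%) had a median Muc2 of 10526 CPM and Defa24 of 4418 CPM. Among all other cells the 95th percentile of the summed share was 0.174% and the 99th 0.437%, and 3 cells at 0.5% or more were left out for want of an Mmp7 UMI.

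Rule transcripts were also found outside the chosen cells. A Defa24 UMI was present in 70.2% of the 1893 other cells (median 18959 UMIs), in 23 of 43 other cells with Dclk1 and Trpm5, the tuft cell markers (53.5%, median 10712 UMIs), and in 127 of 194 with at least 3 UMIs of the enterocyte enzyme Sis (65.5%, median 27728 UMIs). These tuft and Sis limits were set after the data were seen. The level there was low, at 112 CPM in the tuft set and 43.1 CPM in the Sis set. A Defa24 UMI by itself is therefore not read as expression. For each 100 Defa24 UMIs there were 16.0 Lyz1 UMIs in the chosen cells and 15.0 in all other cells, but 6.98 and 136 Mmp7 UMIs.

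The chosen cells varied over a wide range. The share of the 3 rule transcripts ran from 0.514% to 38.0% with a median of 1.77%. It was under 1% in 41 cells, from 2% to under 10% in 43 and at 10% or more in 15. Ordered by this share and divided into low, middle and high groups, the 39 lowest cells had a median Defa24 of 6216 CPM, the 39 in the middle 14162 CPM and the 40 highest 73269 CPM.

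Several products outside the rule had their highest median in the high group, and the Reg3 lectins did not. Itln1, the intelectin that binds bacterial sugars, had medians of 299, 606 and 3811 CPM in the low, middle and high groups. Defa3 was at 0, 43.6 and 1175 CPM and Defa26 at 0, 26.5 and 321 CPM. Reg4, a secreted lectin, was at 0, 31.1 and 521 CPM, Habp2, a protease, at 0, 0 and 102 CPM, and Clps, colipase, at 0, 0 and 66.7 CPM. Defa3, Defa26 and Reg4 had a UMI in 36, 36 and 35 of the 40 highest cells. The antibacterial lectins Reg3g and Reg3b instead had their highest medians in the low group, at 2395, 1556 and 1716 CPM and at 1150, 1046 and 495 CPM. Lyz1, a transcript of the rule, had medians of 225, 171 and 2261 CPM. The alpha-defensin genes are near-identical copies, so counts may be split among them and the level of any single defensin is uncertain.

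Goblet transcripts, Spink4 apart, were lowest in the high group. Fcgbp, an IgG Fc-binding mucus protein, had medians of 3356, 3600 and 1094 CPM in the low, middle and high groups, and Clca1, a secreted mucus protease, 561, 667 and 33.3 CPM. Zg16 had medians of 341, 381 and 55.2 CPM, and Muc2 of 9126, 10019 and 5435 CPM. Spink4 instead had medians of 24180, 33441 and 49857 CPM. At or above the goblet limit were 33 of 39, 33 of 39 and 24 of 40 cells. Over the 118 cells the rank correlation of the rule share and the goblet share was -0.28. The cells share libraries and both shares use the same total, so it is given as a description.

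**Figure D3:**
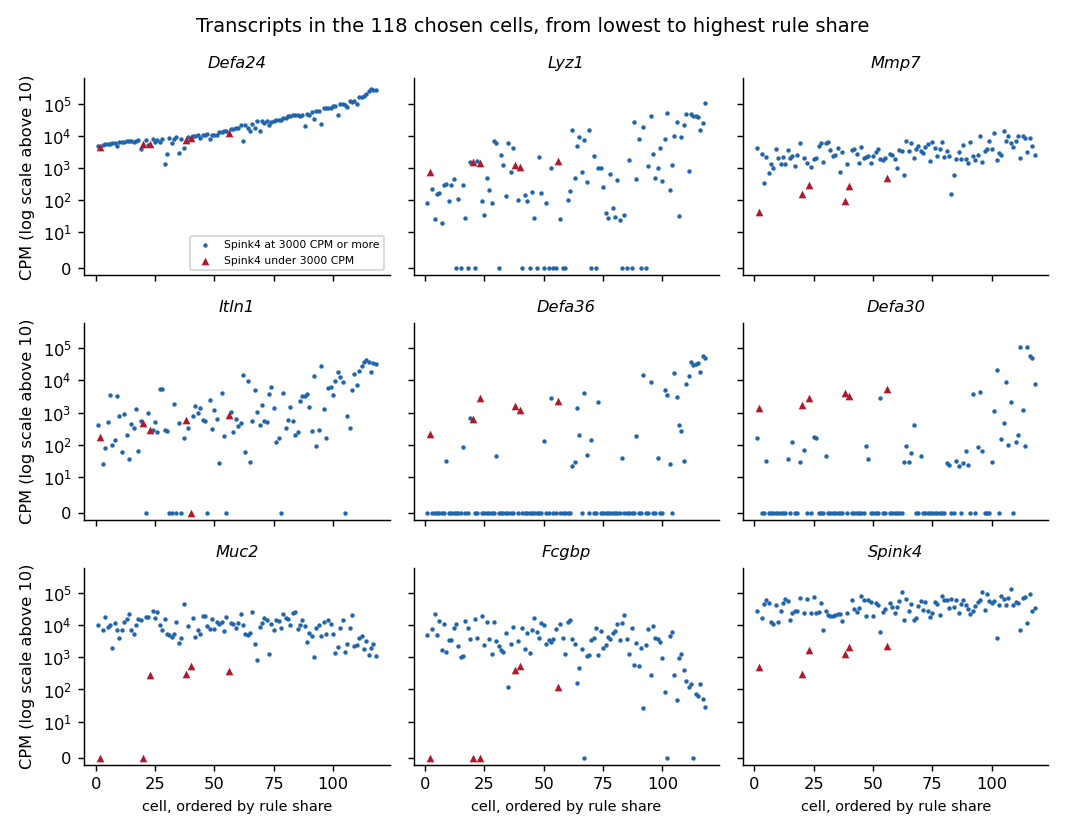
Level of 9 transcripts (CPM, log scale above 10) in the 118 chosen cells, ordered from the lowest to the highest share of Lyz1, Defa17 and Defa24; triangles mark the 6 cells with Spink4 under 3000 CPM. Defa24 rises along the order by construction, Fcgbp falls at the upper end, and the 6 triangles have Muc2 at 554 CPM or less.

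A few cells carried most of the rarer defensins. Defa30, Defa36 and AY761184 had a UMI in 52, 42 and 41 of the 118 cells, and Defa22, Defa21, Gm14851 and Mptx2, a mucosal pentraxin, in 39, 29, 22 and 17. Their medians over the 118 were 0, whereas the highest cell reached 107500 CPM for Defa30, 79380 for Defa22 and 82650 for Defa21. The 7 cells at 20% or more of the rule were all 72 h control cells, 4 from mouse 8, 2 from mouse 7 and 1 from mouse 6. They differed among themselves: Defa21 was at 82650 CPM in 1 of them and at 54.0 CPM in another with a Defa24 of 195100 CPM. Mptx2 was at 0 in 3 of the 7 and at 37430 CPM in 1. Sums over cells of these genes therefore rest on few cells.

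At the other end, 6 chosen cells had little Spink4 (310 to 2298 CPM, against 3849 to 127900 in the other 112). This limit was set after the data were seen. All 6 were 72 h clone cells, 5 of mouse 8 and 1 of mouse 5. Their Muc2 was at 554 CPM or less and Spdef, a transcription factor of goblet and Paneth cells, had no UMI. They had 4447 to 12460 CPM of Defa24 and a median Mmp7 of 216 CPM, against 2669 CPM in the other 112. Their medians of Defa30 (3027 CPM), Reg3b (5240 CPM) and Olfm4 (793 CPM) were above those of the other 112 (0, 795 and 24.4 CPM). Reg3b, an antibacterial lectin of enterocytes, and Olfm4, a stem cell product, were also high in cells outside the chosen set (6078 and 1937 CPM). Values without these 6 cells are given beside the tests.

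Against all other cells, 46 of 6355 genes compared (0.724%) were at least 2-fold higher in the chosen cells in the sum and in every mouse, and 121 (1.90%) at least 2-fold lower. A gene was compared with at least 20 CPM on the higher side, with 5 CPM added before the ratio. Against the 388 goblet-rich cells, 8 of 5548 genes (0.144%) were 2-fold higher in every mouse and 0 (0%) lower. These 8 were Lyz1, Defa17, Defa24, Defa3, Defa26, Defa36, Itln1 and Reg4. The rule used both contrasts, and nothing is read from these counts.

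Of the other alpha-defensins, 24 of the 37 listed genes were in the files, 19 reached the minimum and all 19 were above other cells in the sum, with a median log2 fold of 6.71, against -0.36 over all genes compared. Only Defa3 and Defa26 kept 2-fold in every mouse. The most abundant were Defa30 (5178 CPM), Defa36 (4772 CPM) and AY761184 (4120 CPM). Between mice, Defa30 ran from 10.9 to 38696 CPM with a median of 144.

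Of the other granule products, 13 of 17 in the files were compared and 12 were above other cells. Itln1, Guca2a, Ang4 and Reg4 kept 2-fold in every mouse. Itln1 stood at 5901 against 87.1 CPM and Guca2a, guanylin, at 4975 against 1165 CPM. Reg3g, an antibacterial lectin, stood at 3847 against 3242 CPM and was higher in 5 of 8 mice. Reg3b was lower, at 3030 against 6078 CPM and in 7 of 8 mice. Ang4, an antimicrobial ribonuclease, ran from 19.6 to 3759 CPM between mice.

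Niche ligands were low. Of 13 ligands, 4 reached the minimum and all 4 were above other cells in the sum, none 2-fold in every mouse. Wnt3, the Wnt ligand of Paneth cells, stood at 40.7 against 10.4 CPM, higher in 7 of 8 mice, and at 12.6 CPM in goblet-rich cells. It had a UMI in 25 of the 40 highest chosen cells and in 14 of 39 in each of the other groups. Areg, an EGF receptor ligand, stood at 173 against 72.0 CPM, but at 169 CPM in goblet-rich cells. Dll1, a Notch ligand, stood at 62.3 against 37.8 CPM, and at 96.7 CPM in goblet-rich cells. Dll4, another, stood at 28.3 CPM against 34.4 CPM in goblet-rich cells. Egf was under the minimum, at 11.3 CPM.

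Of the Wnt and Eph receptors, 9 of 12 were compared, 2 were above other cells and the median log2 fold was -0.73. Over all genes compared, 1640 of 6355 were above, with a median of -0.36, so the count is near that share and nothing is read from it. Against goblet-rich cells 3 of 7 receptors were above, with a median of -0.07. Axin2, a Wnt feedback gene, stood at 21.9 against 148 CPM and was at 18.8 CPM in goblet-rich cells. The 3 most abundant were Lgr4 (86.8 against 75.0 CPM), Lrp6 (47.0 against 68.8 CPM) and Fzd5, a Wnt receptor (43.9 against 97.9 CPM).

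Of 15 lineage transcription factors compared, 9 were above other cells, 0 of them 2-fold in every mouse and 1 was 2-fold lower, with a median log2 fold of 0.74. Against goblet-rich cells 6 of 14 were above, with a median of -0.12. Xbp1, a regulator of the secretory pathway, stood at 372 against 182 CPM, Creb3l1 at 286 against 113 CPM and Atoh1 at 177 against 53.0 CPM, each higher in 8 of 8 mice. Spdef stood at 133 against 48.9 CPM. In goblet-rich cells these 4 were at 424, 344, 175 and 163 CPM. Sox9, required for Paneth cells, stood at 150 CPM, against 161 CPM in all other cells and 115 CPM in goblet-rich cells.

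Of the protein folding and secretory genes, 32 of 33 were compared, 29 were above other cells and the median log2 fold was 0.57. Agr2, a disulfide isomerase of mucin-making cells, stood at 13505 against 5229 CPM. Hspa5 (BiP) stood at 1269 against 882 CPM and Sec61b, of the translocon, at 1158 against 662 CPM. Against goblet-rich cells only 2 of 32 were above, with a median of -0.37 and -0.21 over all genes compared. Agr2 and Hspa5 were below goblet-rich cells in 8 of 8 mice (19440 and 1828 CPM).

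Among surface markers, Cd24a, used to sort Paneth cells, stood at 531 CPM, against 171 CPM in all other cells and 153 CPM in goblet-rich cells, and was higher in 8 of 8 mice in both. Kit, also used for sorting, stood at 185 CPM and at 178 CPM in goblet-rich cells. Pigr (2114 CPM), Epcam (1740 CPM) and Muc13 (1048 CPM) were the most abundant of the list, of which 3 of 10 were above other cells. Zinc and metal genes had a median log2 fold of -0.17 with 3 of 10 above; Fth1, Ftl1 and Mt1 stood at 1514, 944 and 145 CPM. Slc30a2, a zinc transporter of secretory granules, had a UMI in 18 of the 40 highest cells and in 4 of 39 in each of the other groups. Of the autophagy and sensing genes 3 of 7 were above, with Map1lc3b at 147, Sqstm1 at 104 and Becn1 at 53.7 CPM. Over all genes compared 1640 of 6355 were above other cells, so nothing is read from the counts of the surface, metal and autophagy lists.

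Markers of other lineages were mostly low. Of 7 stem markers compared, 0 were above other cells: Clca3b, Olfm4 and Smoc2 stood at 96.9, 88.0 and 51.4 CPM, against 745, 1937 and 122 CPM. Against goblet-rich cells 3 of 5 stem markers were above, with a median log2 fold of 0.15. Of 14 dividing cell markers, 0 were above, with Mki67 at 81.4 against 333 CPM, Top2a at 67.2 CPM and Pcna at 48.2 CPM. Of the enteroendocrine list, Sct, secretin, was 2-fold higher in every mouse (367 against 107 CPM), but stood at 268 CPM in goblet-rich cells, with 1 mouse higher there. Tac1 stood at 102 CPM, but Gcg, Chga and Chgb were at 1.44, 0.289 and 1.15 CPM. Dclk1 and Trpm5 had no UMI in the chosen cells, although Kctd12 of the same tuft list stood at 30.9 CPM, Avil at 1.15 CPM and Pou2f3 at 0.577 CPM. Of enterocyte genes, Fabp2 stood at 450 CPM and Anpep at 11.3 CPM.

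Markers of blood and stromal cells were near 0. Of the 8 immune markers 5 had no UMI in the chosen cells, of the 8 stromal and endothelial markers 6, and of the 4 erythroid markers 4. Lyz2, the macrophage lysozyme, stood at 1.73 CPM, Ptprc and Cd3e at 0.289 CPM, and the endothelial gene Esam at 2.60 CPM. Of 6 MHC class II genes compared, 5 were below other cells, where only 1640 of all 6355 genes compared were above. Cd74 stood at 642 against 1181 CPM, H2-Ab1 at 235 CPM and H2-Aa at 127 CPM. Against goblet-rich cells the direction was the reverse: 6 of 6 were above, with a median log2 fold of 0.48, and Cd74 stood at 417 CPM there. All 9 mitochondrial transcripts were below other cells, with a median log2 fold of -0.84 (mt-Co1, 10155 against 12869 CPM; mt-Atp6, 7864 CPM; mt-Co3, 7566 CPM).

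Genes in no list were named by a fixed rule of size. Higher in 8 of 8 mice were Ramp1, a receptor-modifying protein (324 against 42.4 CPM), Ccl6, a chemokine (2712 against 400 CPM), Prxl2a (131 against 24.0 CPM), Hgfac, a serine protease (169 against 32.2 CPM), Lbh (138 against 26.7 CPM), Guca2b, uroguanylin (478 against 106 CPM), Fxyd3 (790 against 185 CPM), Cracr2a (145 against 34.1 CPM), Thbs1, thrombospondin (515 against 135 CPM) and Qsox1, a sulfhydryl oxidase (388 against 105 CPM). Of these, 0 were 2-fold higher than goblet-rich cells in every mouse. Lower in 8 of 8 mice were Fabp6, an ileal bile acid-binding protein (82.2 against 2220 CPM), Mgat4c (1.44 against 120 CPM), Tm4sf20 (11.3 against 235 CPM), Fgfbp1 (5.77 against 124 CPM), Mgst1 (21.6 against 302.9 CPM), Kcnq1ot1 (17.3 against 251 CPM), Otc (9.81 against 153 CPM), Cps1, a urea cycle enzyme (37.5 against 362 CPM), Ccl25 (23.7 against 217 CPM) and Muc3 (10.7 against 107 CPM).

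The first question the design poses for these cells is whether they were found among traced clones. At 48 h the clones held 0 of 4, 0 of 18, 1 of 46 and 0 of 8 chosen cells in mice 1 to 4. Among control cells of these animals it was 7 of 152, 5 of 91, 8 of 228 and 15 of 162. The clone share was 0.543% ± 1.09 and the control share 5.72% ± 2.50 (SD, n = 4 mice). The difference was -5.17 percentage points (exact two-sided permutation test without pairing of the gates, p = 0.0286, adjusted over 6 contrasts p = 0.0857), which did not pass. An unadjusted p of 0.0286 is the smallest that 4 against 4 mice can give in this test. The clone share was lower in 4 of 4 mice, and exact sign flips within mice gave an unadjusted p of 0.125. Counts of 0 among 4, 18 and 8 cells leave wide limits. The upper Wilson 95% bounds of the 4 clone samples (49.0, 17.6, 11.3 and 32.4%) lay above the mean control share. A lower share in 48 h clones was therefore not established at this depth. These bounds reflect counting error alone. The 1 chosen clone cell at 48 h had 1148 UMIs and a rule share of 0.871%.

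At 72 h all 4 mice had chosen cells among the clones: 4 of 163, 7 of 37, 3 of 113 and 23 of 343 in mice 5 to 8. The control cells held 9 of 247, 8 of 134, 5 of 82 and 23 of 183. The shares were 7.68% ± 7.74 and 7.07% ± 3.84 (SD, n = 4 mice), a difference of 0.613 percentage points (exact permutation test, p = 0.943, adjusted p = 0.943). The share was lower in clones in 3 of 4 mice, and mouse 6, with 18.9% of 37 clone cells, set the sign: without it the difference was -3.50. The sign turned in 7 of 17 alternatives. Without the 6 cells low in Spink4 it was 0.0956.

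From 48 h to 72 h the clone share differed by 7.14 percentage points (exact permutation test, p = 0.0286, adjusted p = 0.0857) and the control share by 1.35 (p = 0.571, adjusted p = 0.686). Over all 8 mice the clone-control difference was -2.28 (exact permutation test, p = 0.405, adjusted p = 0.608), with a lower clone share in 7 of 8 mice. Exact sign flips within mice gave an unadjusted p of 0.375 for the difference over all 8 mice. The change of the clone-control difference between the times was 5.79 (exact permutation test, p = 0.257, adjusted p = 0.514). Without mouse 6 the clone difference between times was 3.40, the difference over all mice -4.46 and the change 1.68. None of the 6 contrasts passed after adjustment. For every contrast but that over all 8 mice, 0.0286 is the smallest p that the exact permutation test can give. A single contrast at that limit cannot pass after adjustment over 6, so the lack of a pass is not read as equal shares.

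**Figure D4:**
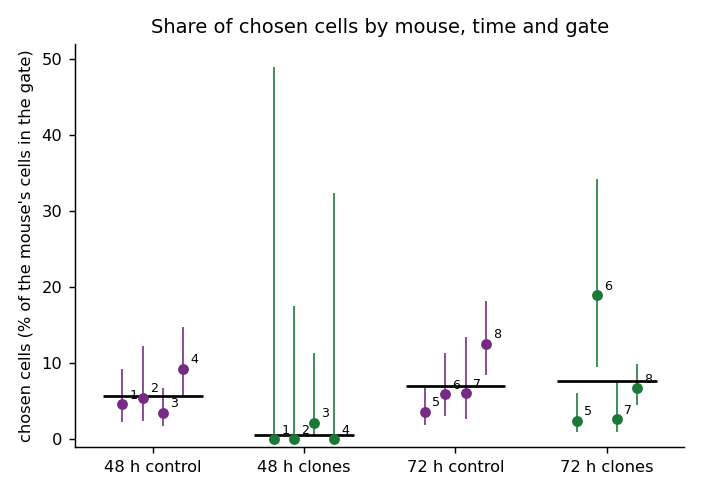
Share of chosen cells (%) among the cells of each mouse and gate; points are mice, with their number, error bars are Wilson 95% intervals for counting error and black lines are means of 4 mice. The 48 h clones lie at 0 or 2.17% with wide intervals, and mouse 6 is the highest of the 72 h clones at 18.9%.

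The chosen cells of the gates were also compared gene by gene. Counts were summed per mouse and gate where there were at least 3 chosen cells, which left out the 48 h clones, and fitted with edgeR's quasi-likelihood test with the pool as covariate. Each group then had 4 mice (3 to 23 cells each), and 3113 genes were tested. In 72 h clones against 72 h control 1 gene was called (0.0321%), higher in clones, and 260 had an unadjusted p under 0.05. In 72 h control against 48 h control 1 gene was called (0.0321%), higher at 72 h, and 164 had an unadjusted p under 0.05. Both comparisons use the same 72 h control sums, so they are not independent.

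The gene called in clones was Dmbt1, a secreted mucosal scavenger receptor protein (chromosome 7, 131032053 to 131121630, plus strand). Its level in the chosen clone cells was 373, 188, 895 and 165 CPM in mice 5 to 8, and 25.2, 4.56, 5.86 and 7.67 CPM in their control cells. The groups did not overlap. The log2 difference was 4.82 ± 0.58 (SE; edgeR adjusted p = 0.00069; higher in 4 of 4 mice). The 37 clone cells held 278 Dmbt1 UMIs in 18 cells, and the 45 control cells 16 UMIs in 13 cells. Without the 6 cells low in Spink4, which held 48 of these UMIs, the log2 difference was 4.66 ± 0.65 (edgeR adjusted p = 0.00409). In the other 31 clone cells Dmbt1 had a median of 0 and a highest value of 1334 CPM, so its sums rest on few cells. The mouse 7 clone sum came from 3 cells, and 1 cell held 77209 of its 116154 gene UMIs. Without mouse 7 the log2 difference was 4.10 (edgeR adjusted p = 0.000458). In 48 h control chosen cells Dmbt1 was at 7.14, 19.6, 7.33 and 16.2 CPM.

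Outside the chosen and goblet-rich cells, Dmbt1 was abundant and not higher in clones. In these remaining cells it stood at 493, 541, 192 and 999 CPM in the 72 h clones of mice 5 to 8 and at 990, 842, 460 and 1334 CPM in their control cells, lower in clones in 4 of 4 mice. In goblet-rich cells it stood at 96.6, 17.4, 16.0 and 154 CPM in clones and at 50.3, 17.3, 84.2 and 80.4 CPM in control cells. Whether these differences differ from that in the chosen cells was not tested.

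Other genes near the threshold did not pass. Clca3b, a stem-zone gene, was at 390, 135, 344 and 123 CPM in clones and at 32.4, 22.8, 11.7 and 27.4 CPM in control cells (edgeR adjusted p = 0.0528). Olfm4 was at 488, 139, 94.7 and 183 CPM and at 32.4, 27.3, 41.0 and 21.9 CPM (edgeR adjusted p = 0.0643). Without the 6 cells low in Spink4 the adjusted p of Olfm4 was 0.558 and that of Clca3b 0.180. With all chosen cells, 3 of 4 stem markers and 3 of 3 dividing cell markers tested were above 0 (median log2 differences 1.60 and 1.53, against -0.02 over all genes), and 0 were called.

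Clone and control cells at 72 h came from the same animals, so the mouse was also fitted as a block (8 sums, 2528 genes, without the pool term). This fit called 40 genes (1.58%), 16 higher and 24 lower in clones. Of the 40, 34 differed in the same direction in all 4 mice and 17 did not overlap between the gates. These counts were taken over called genes only, not over all 2528, and nothing is read from them. The fit leaves 3 residual degrees of freedom, and some calls rest on 1 or 2 mice. Without mouse 7 it called 25 genes, and without the other mice in turn 31 to 56. Leaving out 1 mouse makes the 2 pools uneven between the gates, and this fit has no pool term. Without the 6 cells low in Spink4 it called 29, all of them among the 40, with 7 higher and 22 lower in clones.

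In the blocked fit alpha-defensins fell in the clones. All 14 of the listed defensins that were tested were lower and called, with a median log2 difference of -4.01, against -0.02 over all genes tested. The copies are near-identical, several rest on few cells, and Defa17 and Defa24 chose the cells. The 14 are therefore not independent results. The expression filter could also admit them through the control sums, where they were higher, so their shared sign and median are a description. Defa34 had 8.87, 67.3, 233 and 88.9 CPM in the clone cells of mice 5 to 8 and 935, 761, 3557 and 1898 CPM in the control cells, a log2 difference of -4.59 ± 0.30 (SE; edgeR with the block, adjusted p = 3.28e-08; lower in 4 of 4 mice). AY761184 had 35.5, 33.7, 4503 and 1213 CPM and 5061, 6063, 18320 and 7767 CPM (-4.57 ± 0.66; adjusted p = 0.000352). Neither overlapped between the gates. A Defa34 UMI was present in 7 of 37 clone cells and in 13 of 45 control cells. Defa36 had 204, 231, 9677 and 694 CPM and 4712, 5097, 20440 and 9818 CPM, lower in 4 of 4 mice. Defa21 and Gm14851 were lower in only 2 of 4 mice although called. With each mouse left out, 17 of 17 (mouse 5), 16 of 17 (mouse 6), 8 of 11 (mouse 7) and 10 of 12 (mouse 8) defensins tested were lower and called. In these fits the pool is partly mixed with the gate. Without the block none of the 14 was called, though all 14 were below 0, with a median of -3.10.

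Other granule products followed in the blocked fit, with 4 of 10 lower and 0 higher. Itln1 was at 293, 1846, 10530 and 1323 CPM in clones and at 5176, 7257, 24510 and 9912 CPM in control cells (-2.83 ± 0.39; edgeR with the block, adjusted p = 0.00018). Clps, Rnase1, a ribonuclease, and Reg4 were the others. Of the rule transcripts, Lyz1 was at 53.2, 2418, 15070 and 4967 CPM in clones and at 1964, 11240, 21250 and 15790 CPM in control cells. Defa24 was at 37580, 26290, 34910 and 27680 CPM in clones and at 63060, 40820, 193200 and 72080 CPM in control cells, without overlap. Lyz1 and Defa17 are among the 24 genes counted as lower, but the rule sets a lower limit on its transcripts in both gates, so their values are a description and support no difference.

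Genes that rose in the clones in the blocked fit were Dmbt1, Olfm4, Clca3b, Retnlb, Gm43305, Uaca, Stmn1, Cps1, Rif1, Mgam, Tubb5, Zfp36l2, Gm26917, Nucks1, Hspd1 and mt-Nd3. Only 7 of these 16 were still called without the 6 cells low in Spink4, Dmbt1 and Clca3b among them. Stmn1 and Tubb5, of microtubules, and Nucks1 are abundant in dividing cells, and Mgam is a brush border enzyme. Of 4 stem markers tested 2 rose (Olfm4 and Clca3b) and 0 fell, but without the 6 cells low in Spink4 Olfm4 was not tested in this fit. Retnlb, a goblet cell antibacterial protein, was at 301.7, 697, 25.8 and 548 CPM in clones and at 0, 100, 0 and 141 CPM in control cells. All 9 listed mitochondrial transcripts, to which mt-Nd3 does not belong, were above 0, with a median of 0.81 and 0 called. The median mitochondrial share was 4.81% of UMIs in the clone cells and 3.62% in the control cells, and its part in the result was not tested.

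Goblet, transcription factor, folding and niche genes gave no call in either 72 h fit. With the block the 8 goblet markers had a median log2 difference of -0.70, the 9 lineage factors tested -0.21, the 30 folding genes -0.23 and the 2 niche ligands -0.51. MHC class II genes had a median of 0.24, metal genes -0.07, sensing genes -0.16, surface markers 0.17 and the 1 receptor tested -0.44. The median UMI count was 31390 in the clone cells and 36780 in the control cells. The chosen clone cells had a median rule share of 1.42% (2 of 37 at 10% or more), the 72 h control cells 2.92% (11 of 45) and the 48 h control cells 1.13% (2 of 35).

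Between the 2 sets of control cells, from different mice, Defa34 (chromosome 8, 21665797 to 21666732, plus strand) was the 1 gene called. It was at 0, 0, 0 and 73.0 CPM in mice 1 to 4, all 27 UMIs being in 2 cells of mouse 4, and at 935, 761, 3557 and 1898 CPM in mice 5 to 8. The groups did not overlap. The fitted log2 difference was 6.77 ± 0.98 (SE; edgeR adjusted p = 0.00726; higher in 4 of 4 mice), which depends on the zeros. Left out in turn, mice 1, 2 and 3 each ended the call (edgeR adjusted p = 0.0588, 0.0722 and 0.0522). Of the 45 chosen control cells at 72 h 13 had a Defa34 UMI, and of the 35 at 48 h 2 had one.

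All 14 defensins tested were above 0 in this contrast, with a median log2 difference of 7.47, against -0.03 over all genes, and 1 was called. The listed defensins together made up 243 to 1838 CPM in the 48 h sums and 13060 to 229700 CPM in the 72 h sums. The expression filter could thus admit them through the 72 h sums, where they were high. Their shared sign and median are therefore a description. Defa36 was at 21.4, 225, 29.3 and 122 CPM at 48 h and at 4712, 5097, 20440 and 9818 CPM at 72 h (edgeR adjusted p = 0.0569). AY761184 was at 7.14, 49.0, 55.0 and 243 CPM and at 5061, 6063, 18320 and 7767 CPM (edgeR adjusted p = 0.0625). Defa26 was at 14.3, 98.0, 110 and 124 CPM and at 475, 369, 1031 and 570 CPM (edgeR adjusted p = 0.0620). Defa24 was at 18730, 20870, 17600 and 37640 CPM and at 63060, 40820, 193200 and 72080 CPM, given as a description since the rule used it. None of these 4 overlapped between the times, and Defa36, AY761184 and Defa26 did not pass. The share of all genes without overlap is not given, so the lack of overlap is a description.

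Itln1 was at 728, 706, 2282 and 2738 CPM at 48 h and at 5176, 7257, 24510 and 9912 CPM at 72 h (edgeR adjusted p = 0.243). Cd24a was at 293, 373, 407 and 489 CPM and at 942, 633, 738 and 496 CPM (edgeR adjusted p = 0.0845). Goblet markers had a median of 0.31 and folding genes of 0.02. The 3 dividing cell markers tested had a median of -2.79, which rests on mouse 1, where Mki67 was at 899 CPM against 9.80 to 25.7 in mice 2 to 4. Time and mouse cannot be told apart beyond the 4 mice at each time, and the 7 cells at 20% or more of the rule came from 3 mice.

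**Figure D5:**
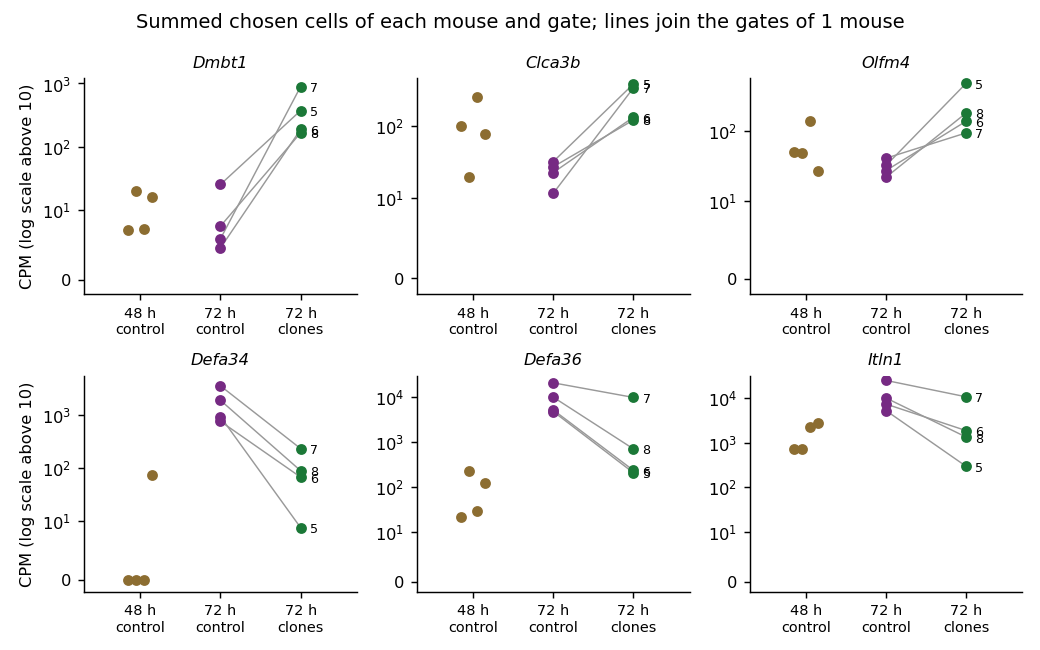
Level of 6 transcripts (CPM, log scale above 10) in the summed chosen cells of each mouse, in 48 h control (mice 1 to 4), 72 h control and 72 h clones (mice 5 to 8, numbered; lines join the gates of 1 mouse). Dmbt1 is higher in the clones in 4 of 4 mice, and Defa34, Defa36 and Itln1 are lower in the clones in 4 of 4 mice.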

How the data were processed

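Single-cell libraries of 2 pools were analysed. Per the file headers, the deposited matrices hold raw counts (gene UMIs and hashtag reads per barcode) from Cell Ranger 6.1.2; per the submitters' processing notes the build was mm10. Other deposited values are the identifiers and symbols of genes and the barcodes. The authors' cell and hashtag filters are not given in the sources used here. The mouse was taken from the top hashtag, and the gate from hashtag and pool, per the labels. The hashtag minimum removes barcodes whose hashtag counts are spread over mice, but how many mixed barcodes remain was not tested. With a minimum of 80%, 83 chosen cells were left. Doublets within a mouse were not removed.

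The members and gene lists were chosen with earlier results of these data known. CPM is the UMIs of a gene per 1000000 gene UMIs of the cells summed. Named genes were the 4 rule genes, the 3 most abundant members of each list, the 10 genes in no list with the largest fold each way at 100 CPM or more, and the called genes (at most 5 each way); naming the genes of the blocked fit, further list members and near misses was chosen after the values were seen. One gene that the rule names is not reported here. Exact permutation tests over mice, two-sided and without pairing of the gates, compared shares with Benjamini-Hochberg adjustment over 6 contrasts. Sums with at least 3 cells were tested with edgeR 4.0.16 in R 4.3.3 by its quasi-likelihood test (TMM scaling after filterByExpr, pool as covariate, adjusted p under 0.05). At 72 h, clone and control residuals of 1 mouse correlated at 0.17, 0.248, 0.255 and 0.361 across 3113 genes; these pairs are the same animals. Scripts used Python 3.11.15, numpy 2.4.6 and scipy 1.17.1. On simulated counts the 72 h gate contrast recovered 91 of 92 genes shifted by 2 (log2) and 48 of 91 shifted by 1, with 5 false calls (2885 genes). The control contrast recovered 90 of 95 and 34 of 97, with 9 false calls (2904 genes). All simulated sums came from 1 average profile with the estimated spread of each gene, and had no pool effect and no effect shared by a mouse. These rates may therefore not hold for genes carried by few cells, such as the rarer defensins. Alternatives were other rule limits, hashtag and mitochondrial limits, thinning, each pool alone, a mouse block, DESeq2 1.42.0, RLE size factors, no filter, at least 5 cells per sum and each mouse left out.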

Additional observations from a re-analysis of the deposited data

Results flagged for a closer look

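In 27 groups of 4 mice (shares, and the summed level of 8 transcripts in the chosen cells), 7 held a mouse far from the other 3. The cutoff gives about 1 in 20 by chance only for normally spread values. These values are skewed, and 3 mice at 0 pass it whenever the 4 mouse values differ at all. The transcripts are also not independent of each other, so 7 of 27 is not read as an excess. The share of chosen cells in 48 h clones was 2.17% in mouse 3 and 0 in the other 3 mice. In 72 h clones mouse 7, with 3 chosen cells, stood apart for Defa17 (3220 CPM), Itln1 (10530 CPM) and Defa36 (9677 CPM). In 48 h control mouse 4 stood apart for Defa24 (37640 CPM) and Defa34 (73.0 CPM). In 72 h control mouse 5 stood apart for Dmbt1 (25.2 CPM), still below all 4 clone values.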

How the results depend on the processing

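Of 6 share contrasts, 0 passed after adjustment under any alternative run (lowest adjusted p 0.0699). With so few mice a pass was mostly out of reach, so this is not read as equal shares. The 48 h clone-control difference kept its sign throughout (-7.60 to -2.61 percentage points). The 72 h difference of 0.613 turned negative with rule limits of 0.25% (-0.409), 1% (-0.395) and 2% (-0.420), a mitochondrial limit of 10% (-1.45), thinning (-1.45), in pool 1 alone (-0.127) and without mouse 6; leaving out each mouse gave -3.50 to 2.77. The control difference between times turned negative with a hashtag minimum of 80% (-0.269), in pool 1 alone (-0.243) and without mouse 8, with a leave-one-out range of -0.480 to 2.53. Exact sign flips within mice (replicate block) gave an unadjusted p of 0.125 for the 48 h difference, the smallest that 4 mice allow. A limit of 1% left 77 cells and of 2% 58.

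Against other cells without goblet-rich ones, 178 genes were 2-fold higher and 215 lower in every mouse. At the 2% limit 247 were lower. Leaving out each mouse gave 46 to 73 higher (the latter without mouse 7) and 123 to 233 lower (the latter without mouse 1). The 72 h gate contrast called 11 genes with DESeq2, 82 without the filter, 2 with at least 5 cells per sum, 40 with the mouse block and 1 to 11 with each mouse left out (above 1 without any mouse but 5, and 11 without mouse 7); the cause was not tested. With the mouse block, leaving out each mouse gave 25 (mouse 7) to 56, with pool and gate partly mixed. The control contrast called 18 with DESeq2, 80 without the filter, 26 with at least 5 cells per sum and 0 to 11 with each mouse left out, 0 of them without mice 1, 2 or 3 (unadjusted p under 0.05 in 126 to 171 genes). Dmbt1 was called in all 14 alternatives run (edgeR and DESeq2 adjusted p from 1.45e-29 to 0.0226), and Defa34 between control sets in 10 of 13. The 48 h clones held 76 cells, which limits the precision of their shares.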
